A study of Mus musculus with 4 samples.

Results

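The 7 genes described here, *Adamdec1*, *Nrg1*, *Cd34*, *Dpp4*, *Pdpn*, *Cd81* and *Pi16*, separate fibroblast (FB) subsets of the adult mouse intestine or serve as surface handles for sorting FB and their precursors. They were taken as a named list, 7 of the 28692 genes in the count matrices, and were followed in mesenchymal stromal cells (MSC) of the embryonic gut. The data are single cell RNA-seq of small intestine (SI, 2 libraries) and large intestine (LI with cecum, 2 libraries) from untreated embryos of an EYFP reporter strain on a C57BL/6 background at E12.5. Cells were sorted as live CD45-, Ter119-, CD31-, EpCAM-, Itgb1+ and YFP+ from pooled embryos of independent experiments, and SI and LI libraries carry the same strain and no treatment. The description and tissue labels speak of adult and colonic material while the titles give E12.5, and the titles were followed.

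In adult gut, CD81+ FB lie deep beneath the crypts and around vessels, where they supply WNT agonists and BMP antagonists, and *Pi16* marks a subset of FB around vessels in many organs. PDGFRα hi FB lie just under the epithelium and produce neuregulin 1, the ligand encoded by *Nrg1*, which binds ERBB3 and ERBB4. *Adamdec1* encodes a secreted metalloprotease of the ADAM family that is characteristic of lamina propria FB. CD34 is a sialomucin of progenitor and endothelial cells, DPP4 (CD26) is a surface dipeptidyl peptidase that trims the ends of chemokines and incretins, podoplanin (PDPN) is a mucin-type glycoprotein that binds the platelet receptor CLEC-2, and CD81 is a tetraspanin that organises integrins and other partners in the membrane. *Pi16* encodes a peptidase inhibitor of the CAP-domain family.

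The genes lie on 7 chromosomes (GENCODE vM21 on mm10, protein coding in each case). *Adamdec1* spans chr14:68563380-68582095, *Nrg1* chr8:31814551-32884029, *Dpp4* chr2:62330073-62412231 and *Pdpn* chr4:143267431-143299564, all on the minus strand. *Cd34* spans chr1:194938819-194961279, *Cd81* chr7:143052739-143067934 and *Pi16* chr17:29317680-29330593, on the plus strand. A gene on the opposite strand shares exon sequence with 5 members, *Nrg1*, *Cd34*, *Dpp4*, *Cd81* and *Pi16*. For *Cd81* and *Pi16* that gene was not analysed here. For the others it held 65 UMIs against 3083 for *Nrg1*, 22 against 198 for *Cd34* and 0 against 1482 for *Dpp4*, and whether counting used strand is not given in the sources used here.

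Upstream sequence is shown for the pair of members with the largest excess in mesothelial cells, *Dpp4* and *Pdpn*, and for *Cd81*, which was found in every cell group, to set their base composition side by side. The set of RefSeq promoters used here (GRCm38.p6) had entries for 5 of the 7 members. Each stretch holds the 150 bases before the RefSeq start, 5′ to 3′ on the strand of the gene, at chr2:62412232-62412381 for *Dpp4* and chr4:143299565-143299714 for *Pdpn* on the minus strand and at chr7:143052600-143052749 for *Cd81* on the plus strand. Capitals mark matches to the E-box CANNTG or the GC box GGGCGG on either strand.
Dpp4: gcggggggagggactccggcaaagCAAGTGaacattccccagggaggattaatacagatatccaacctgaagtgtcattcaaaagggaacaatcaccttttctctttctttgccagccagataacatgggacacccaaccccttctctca
Pdpn: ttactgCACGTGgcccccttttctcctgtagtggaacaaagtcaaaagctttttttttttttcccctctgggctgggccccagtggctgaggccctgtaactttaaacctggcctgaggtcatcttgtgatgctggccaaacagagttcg
Cd81: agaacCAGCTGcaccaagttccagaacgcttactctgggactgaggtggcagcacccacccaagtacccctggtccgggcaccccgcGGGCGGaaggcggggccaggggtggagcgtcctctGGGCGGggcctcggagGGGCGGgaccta
The *Cd81* stretch held 3 GC boxes, at 63, 28 and 12 bases before the start. The *Dpp4* and *Pdpn* stretches held none. Each of the 3 stretches had 1 E-box, at 126 bases for *Dpp4*, 144 for *Pdpn* and 145 for *Cd81*, and no matches overlapped. Further upstream *Dpp4* had a TATA box at 227 bases. Over 250 upstream bases, 66.2% of the 32851 promoters in the table held an E-box, 32.7% a GC box, 12.4% a TATA box TATAAA, 33.8% a CCAAT box CCAAT and 4.3% the EGR and WT1 core GCGTGGG. GC content over that window was 43.6% for *Dpp4*, 43.2% for *Pdpn* and 65.6% for *Cd81*, beside a median of 52.4% over all promoters. A match is a stretch of letters and was not tested as a binding site.

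The 4 libraries held 24485 barcodes, of which 22094 were kept (1000 genes or more, at most 10% mitochondrial UMIs, likely doublets removed). LI replicate 1 was the shallowest (4220.5 UMIs in the median cell against 8382 to 8829 in the other libraries), so shares of cells are given after each cell was thinned to 3000 UMIs. Cells under 3000 UMIs were left out of these shares, 3.64 to 18.3% of a cell group in LI replicate 1 and 1.14 to 5.17% in the other libraries. Pairs of libraries shared 8 to 15 barcodes. Clusters were made without the 7 members and the listed pathway genes, and were named from marker lists. This gave 1304 mesothelial cells (LI replicate 1 with 627 and replicate 2 with 235, SI replicate 1 with 271 and replicate 2 with 171). Each library had 220 to 436 neural, 781 to 1885 smooth muscle (SMC) and 3166 to 4357 other mesenchymal cells. These names stand for cells like those types, as the markers give them. Other mesenchyme joins 3 clusters with FB markers and 3 that stayed unnamed. The labelled MSC identity held for most cells, but the gate also let through enteric neural cells, with a summed neural marker level of 4029 to 5406 CPM (UMIs of a gene scaled to 1e6 UMIs of that group and library) in the neural group. Immune markers in other mesenchyme summed to at most 0.7 CPM. Values below are listed in the order LI replicate 1, LI replicate 2, SI replicate 1, SI replicate 2.

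*Dpp4*, the dipeptidyl peptidase gene, lay mostly in mesothelial cells. Its level in mesothelial cells was 46.3, 106, 176 and 257 CPM, from 137, 267, 388 and 403 UMIs. In other mesenchyme it was 1.59, 2.37, 1.84 and 2.68 CPM, and in SMC 0.50, 1.49, 0.70 and 1.01 CPM. Every mesothelial value lay above every value of the other groups, and neural cells held 2 *Dpp4* UMIs, both in SI replicate 1. Mesothelial cells made up 10.3, 5.29, 5.29 and 2.74% of the grouped cells and carried 80.6, 76.5, 85.7 and 79.0% of the *Dpp4* UMIs. The fold of mesothelial cells over other mesenchyme was 64.1 (log2 6.00 ± 0.23 (SE), 4 libraries in each group, adjusted p = 2.08e-07).

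*Dpp4*, *Pdpn*, *Cd81* and *Cd34* were called higher in mesothelial cells, where 38.6% of the 12740 genes tested were called in either direction. *Nrg1* passed the filter on low counts through other mesenchyme alone and is described by its values. The groups were made by clustering these same cells. Adjusted p-values in the text come from the quasi-likelihood test of edgeR on UMIs summed per library and cell group, Benjamini-Hochberg adjusted over all genes tested, with a threshold of 0.05. *Adamdec1* and *Pi16* did not pass the filter on low counts in it. *Pdpn* was higher in mesothelial cells by a log2 difference of 2.37 ± 0.17 (5.17-fold, adjusted p = 7.82e-06), with 29.7, 33.8, 40.0 and 51.0 CPM there and 8.40, 5.07, 9.01 and 7.26 CPM in other mesenchyme. The tetraspanin *Cd81* was higher by 0.56 ± 0.07 (1.47-fold, adjusted p = 0.000169), at 371, 414, 464 and 540 CPM beside 290, 275, 305 and 332 CPM. For *Pdpn* and *Cd81* the mesothelial values did not overlap those of other mesenchyme.

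**Figure D1:**
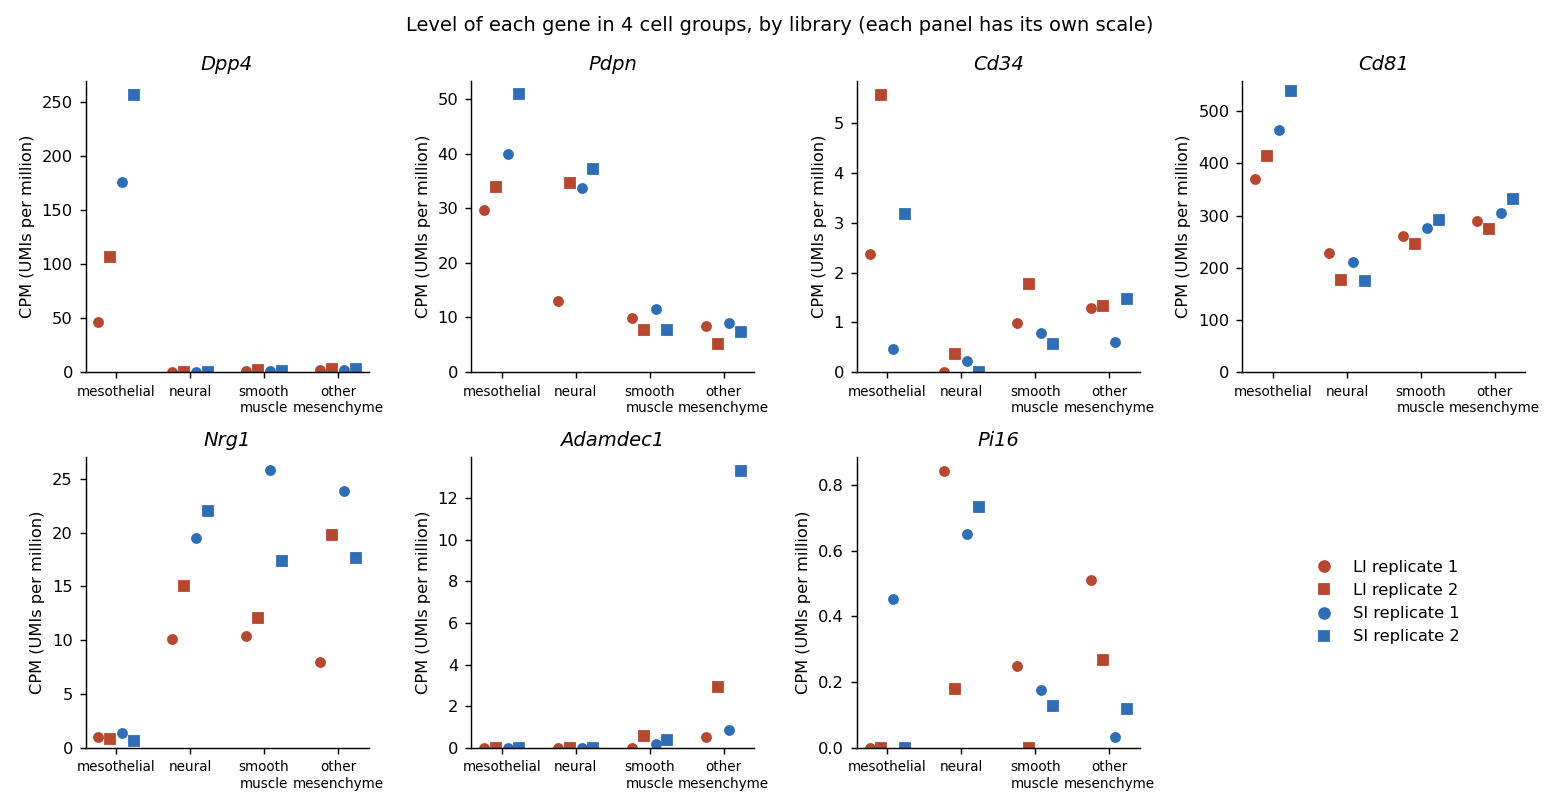
Level of each of the 7 genes (CPM of UMIs summed per library and cell group, vertical axes from 0 with a range of their own) in mesothelial, neural, smooth muscle and other mesenchymal cells, with 1 point per library (LI red, SI blue, circle for replicate 1 and square for replicate 2). *Dpp4* stands at 46.3 to 257 CPM in mesothelial cells and at most 2.68 CPM elsewhere, while *Cd81* is found in every group.

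*Cd34* was low everywhere. Mesothelial cells held 7, 14, 1 and 5 *Cd34* UMIs, or 2.37, 5.57, 0.45 and 3.19 CPM, beside 1.28, 1.33, 0.60 and 1.47 CPM in other mesenchyme. The groups overlapped, and SI replicate 1 was the lowest library in both. The fitted log2 difference was 1.26 ± 0.41 (adjusted p = 0.0372), and it missed the threshold with DESeq2 (adjusted p = 0.0918) and without LI replicate 1 (0.0519), LI replicate 2 (0.288) or SI replicate 2 (0.0677). Blood endothelial markers, the list of the cell type best known for *Cd34*, summed to 3.2 to 7.3 CPM in mesothelial cells and 3.3 to 4.7 CPM in other mesenchyme, with 1 to 5 of 8 at 0 in a library, and their part in the *Cd34* counts was not tested.

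The order of the group means differed between members. For *Dpp4* it ran from mesothelial cells (146 ± 90.8 CPM, SD, n = 4) to other mesenchyme (2.12 ± 0.49), SMC (0.93 ± 0.43) and neural cells. For *Pdpn* mesothelial cells (38.6 ± 9.25) and neural cells (29.7 ± 11.1) were followed by SMC (9.21 ± 1.93) and other mesenchyme (7.44 ± 1.74), and neighbours within each of these pairs overlapped. For *Cd81* mesothelial cells (447 ± 72.6) came before other mesenchyme (300 ± 24.5), SMC (268 ± 20.03) and neural cells (198 ± 26.0), with SMC and other mesenchyme overlapping. These levels are per library and are compared between groups within a gene, not between genes.

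*Pdpn* was the one member among the 4 tested that was called higher in neural cells. It stood at 13.1, 34.6, 33.6 and 37.3 CPM there, and LI replicate 1 was the lowest library. The log2 difference from other mesenchyme was 2.05 ± 0.29 (4.14-fold, adjusted p = 0.00113 by edgeR). *Cd81* was lower in neural cells by a log2 difference of -0.57 ± 0.13 (adjusted p = 0.00998), with 228, 177, 211 and 175 CPM, all below the values of other mesenchyme. *Nrg1* did not pass (log2 0.00 ± 0.16, adjusted p = 0.992). Over all genes 48.2% of 12906 were called in this contrast. *Dpp4*, with 2 UMIs in neural cells, passed the filter on low counts through other mesenchyme and is given no fold or test.

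The neural group was made of 2 clusters, and *Pdpn* and *Nrg1* were high in different ones. Cluster 7, led by the progenitor genes *Foxd3* and *Sox10*, held *Pdpn* at 14.5, 39.7, 40.7 and 46.6 CPM, while cluster 9, led by the neuronal genes *Cartpt*, *Stmn2* and *Tubb3*, had a mean of 8.74 CPM. *Nrg1* was the reverse, with 56.4, 73.9, 86.2 and 89.6 CPM in cluster 9 and a mean of 0.96 CPM in cluster 7. For *Nrg1* the 2 clusters did not overlap. *Pi16* UMIs in neural cells, 2, 1, 3 and 4 per library, all lay in cluster 9 (5.37, 0.96, 2.94 and 3.01 CPM) and none in cluster 7. These are descriptions with no test, as clusters are made from the same cells.

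*Nrg1* was spread over other mesenchyme, SMC and neural cells and was nearly missing from mesothelial cells. In other mesenchyme it stood at 7.94, 19.7, 23.8 and 17.6 CPM and in SMC at 10.4, 12.1, 25.8 and 17.4 CPM. Mesothelial cells held 3, 2, 3 and 1 *Nrg1* UMIs, or 1.01, 0.80, 1.36 and 0.64 CPM. The 3 groups with *Nrg1* overlapped, and the mesothelial values lay below all of theirs. No fold or test is given for so few UMIs.

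Within other mesenchyme *Nrg1* followed cluster 3, an unnamed cluster of 2130 cells led by *Col14a1*, *Bmp3* and *Rgs5*. It had 30.4, 76.9, 86.1 and 54.9 CPM of *Nrg1* there. Cluster 6, led by *Wnt4*, *Anxa2* and *Tac2*, had a mean of 0.98 CPM, cluster 0, the largest FB cluster, 3.85 CPM, cluster 8 4.62 CPM, cluster 2 12.7 CPM and cluster 4 16.4 CPM. Cluster 6 held *Dpp4* at 4.97, 7.11, 4.09 and 8.24 CPM, the most outside mesothelial cells. *Cd81* had means of 430 CPM in cluster 6, 395 in cluster 8, 311 in cluster 0, 297 in cluster 3, 262 in cluster 2 and 237 in cluster 4. *Cd34* had a mean of 2.94 CPM in cluster 6 beside 2.89 CPM in mesothelial cells.

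*Adamdec1* was the member most dependent on the library. Other mesenchyme held 10, 88, 25 and 453 *Adamdec1* UMIs, or 0.51, 2.93, 0.84 and 13.3 CPM. Each region had 1 high and 1 low library, so SI and LI overlapped. SMC held 0, 4, 2 and 6 UMIs and mesothelial and neural cells none, where a count of 0 allows 1.01 to 1.91 CPM per library in mesothelial cells and 0.54 to 1.27 CPM in neural cells (3 UMIs, counting error only). Nearly all of it lay in cluster 3, at 4.10, 18.9, 4.50 and 58.1 CPM, with 2.13, 11.9, 4.25 and 30.8% of its cells holding a UMI before thinning. That cluster numbered 469, 428, 518 and 715 cells per library. The 6 pericyte markers summed to 36.4, 53.3, 60.5 and 130 CPM in other mesenchyme, with *Higd1b* at 0 in 3 libraries, and the 10 SMC markers to 952, 1275, 1327 and 2350 CPM. Both were highest in SI replicate 2, the library with the most *Adamdec1*, and their part in its level was not tested.

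**Figure D2:**
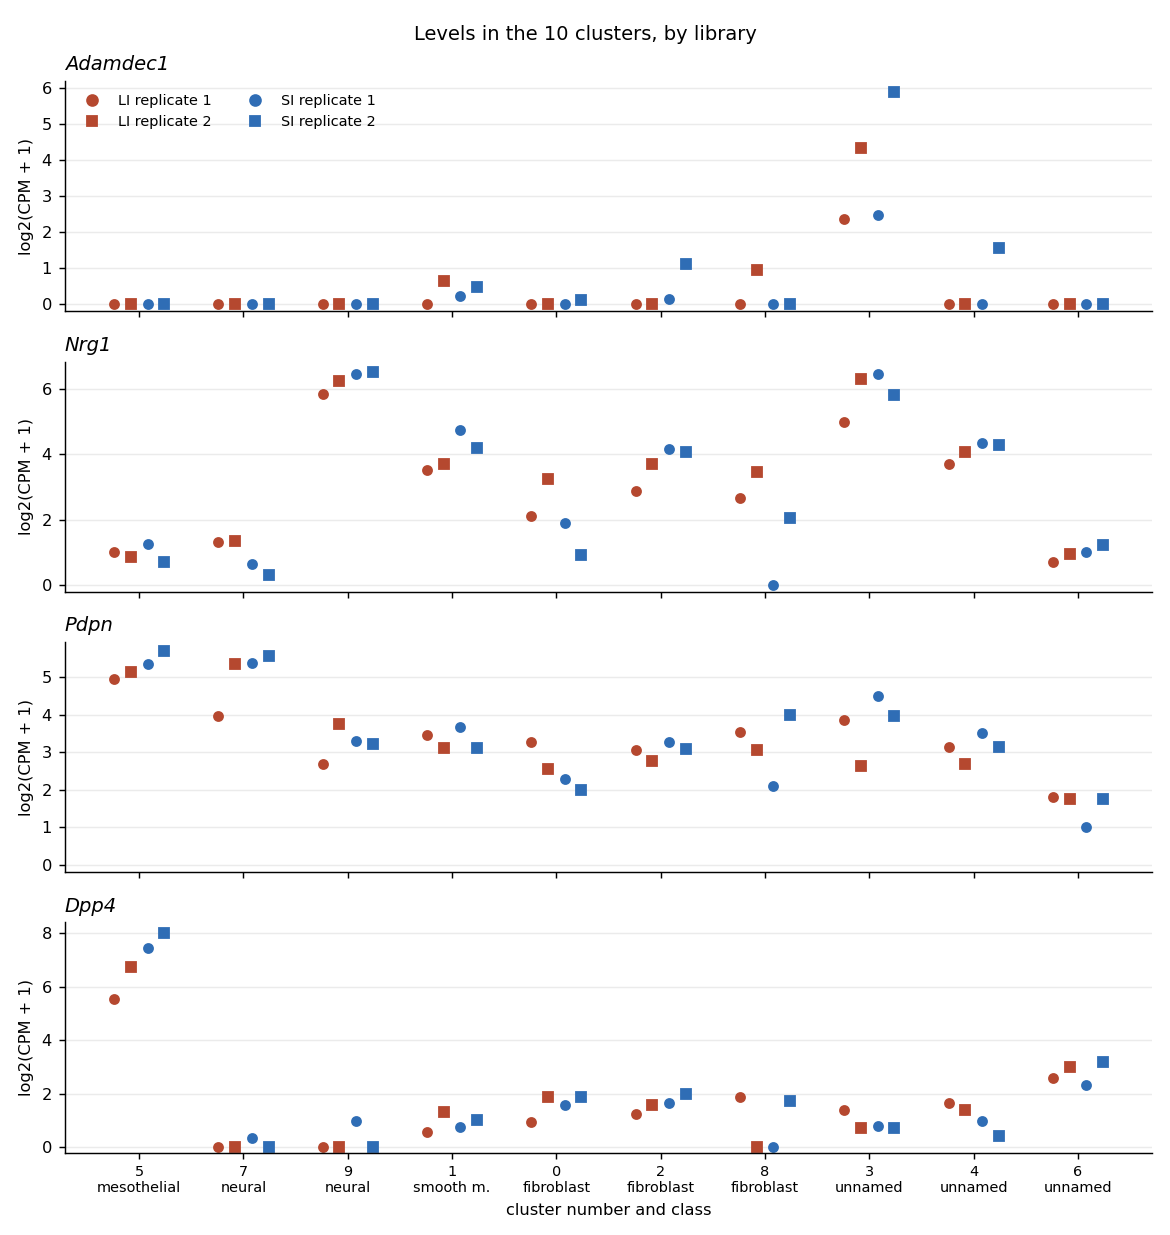
Level of *Adamdec1*, *Nrg1*, *Pdpn* and *Dpp4*, as log2(CPM + 1), in the 10 clusters used (horizontal axis, cluster number and class), with 1 point per library (colours and shapes by region and replicate). *Adamdec1* is high in cluster 3 (4.10 to 58.1 CPM), *Nrg1* in clusters 3 and 9, *Pdpn* in clusters 5 (mesothelial) and 7, and *Dpp4* in cluster 5.

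*Pi16* was at the edge of detection, with 13, 17, 7 and 10 UMIs in all kept cells of a library. In LI replicate 2, 8 of the 17 came from the 2 cells of cluster 11, which stood outside the groups. Mesothelial cells held 1 of them, in SI replicate 1. It passed the filter on low counts in no comparison and is not tested here.

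SI was compared with LI within each cell group to ask where the regions differ. In mesothelial cells *Dpp4* was 2.98-fold higher in SI (216.5 ± 56.9 CPM, SD, n = 2) than in LI (76.3 ± 42.4 CPM, n = 2), and the SI and LI libraries did not overlap. The share of all genes without such overlap was not counted. The log2 difference was 1.57 ± 0.32 (edgeR, adjusted p = 0.0354). *Pdpn* (0.57 ± 0.25, adjusted p = 0.431) and *Cd81* (0.41 ± 0.19, adjusted p = 0.442) were also higher in SI but did not pass. So 1 of the 3 members tested passed, beside 1.18% of 10637 genes, and *Adamdec1*, *Nrg1*, *Cd34* and *Pi16* had too few mesothelial UMIs.

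The *Dpp4* difference stood under each of the 11 alternatives run, with log2 differences of 1.11 (without LI replicate 1, adjusted p = 0.0417) to 2.24 (without LI replicate 2, adjusted p = 0.0001, edgeR). Marker sums and depth also differed between these mesothelial libraries. The 8 FB markers, none at 0, summed to 1381, 2350, 2563 and 3602 CPM in mesothelial cells, the 10 SMC markers to 961, 612, 443 and 557 CPM, and the median UMIs per cell were 4310, 8918, 7484 and 8065. The 11 mesothelial markers summed to 2344, 2514, 2493 and 2528 CPM, with *Msln* at 0 in both LI libraries. The part of the FB and SMC markers in the *Dpp4* difference was not tested. With 3000 UMIs drawn per cell, which left out 12.1, 3.40, 5.17 and 1.75% of the mesothelial cells as too shallow, the log2 difference was 1.75 (adjusted p = 0.0065, edgeR).

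The same direction was seen in the share of cells. After thinning, a *Dpp4* UMI was found in 67 of 551, 53 of 227, 97 of 257 and 93 of 168 mesothelial cells, or 12.2, 23.3, 37.7 and 55.4%. The share in other mesenchyme was 0.42 to 0.81%, and none of 1220 neural cells held one. The SI mean of 46.6% was 28.8 percentage points above the LI mean of 17.8% without overlap, but 2 against 2 libraries cannot go below p = 0.33 in the exact permutation test, 2-sided, which is the value obtained. Among mesothelial cells with a UMI of the uroplakin *Upk3b* the share was 11.7, 27.0, 37.6 and 55.9%. *Pdpn* was found in 8.53, 9.69, 10.1 and 16.7% and *Cd81* in 64.4, 67.4, 73.5 and 79.2% of mesothelial cells. SI lay above LI in both, with p = 0.33 in the same permutation test.

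**Figure D3:**
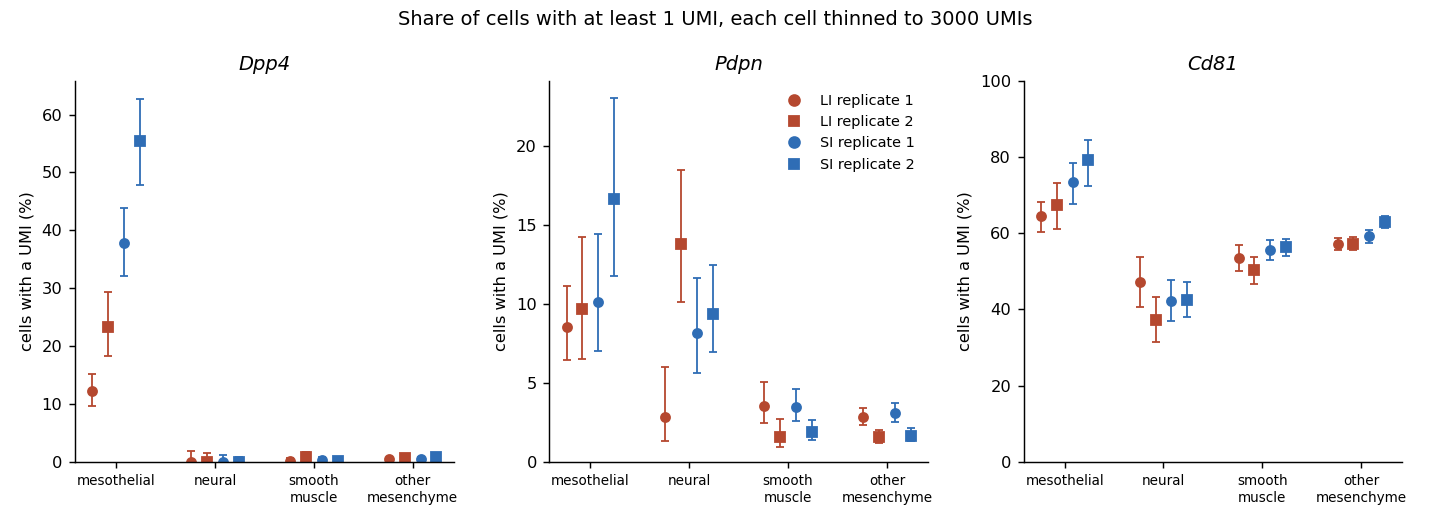
Share of cells with at least 1 UMI of *Dpp4*, *Pdpn* or *Cd81* (percent of cells thinned to 3000 UMIs, vertical axes) in each cell group; points are libraries and error bars are 95% Wilson intervals that cover counting error only. The *Dpp4* share of mesothelial cells runs from 12.2 to 55.4%, with both SI libraries above both LI libraries.

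The difference between regions was itself compared between mesothelial cells and other mesenchyme. For *Dpp4* it was larger in mesothelial cells by a log2 value of 1.19 ± 0.24 (interaction term, edgeR, adjusted p = 0.00211), and it passed under all 11 alternatives (0.92 to 1.67). Over all genes 5.06% of 13497 passed. The interaction was 0.08 for *Pdpn* (adjusted p = 0.936). None is given for *Nrg1* and *Adamdec1*, with few mesothelial UMIs and none.

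In other mesenchyme 0 of 6 members passed between SI and LI with edgeR, beside 3.16% of 14032 genes, and none had an unadjusted p under 0.05 or passed with DESeq2. *Adamdec1* had the largest estimate, a log2 difference of 2.13 ± 1.09 (SI 7.08 ± 8.83 CPM, LI 1.72 ± 1.71 CPM, adjusted p = 0.370), and it depended on the libraries: it was 3.88 and passed without LI replicate 2 (adjusted p = 0.00454) or was 3.03 without SI replicate 1 (adjusted p = 5e-06), and turned to -0.89 without SI replicate 2. *Nrg1* was 0.74 ± 0.37 higher in SI (adjusted p = 0.364), and 1.49 without LI replicate 2 (adjusted p = 0.000127). The others were 0.43 ± 0.30 for *Pdpn*, 0.34 ± 0.34 for *Dpp4*, 0.33 ± 0.16 for *Cd81* and -0.17 ± 0.46 for *Cd34*, with adjusted p-values of 0.351 to 0.891. *Adamdec1* and *Nrg1* were highest in cluster 3. It held 469 of 4357, 428 of 3166, 518 of 3182 and 715 of 3752 cells of this group. The part of this mix of clusters in their differences was not tested.

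In SMC, 0 of the 3 members tested passed with edgeR, beside 1.49% of 12258 genes. *Nrg1* came nearest, with a log2 difference of 1.06 ± 0.26 (adjusted p = 0.115, edgeR), and it was the 1 member with an unadjusted p under 0.05. DESeq2 called none. In neural cells 0 of 3 passed with edgeR, beside 0.310% of 11283 genes, 1 had an unadjusted p under 0.05 and DESeq2 called none. *Nrg1* was 0.61 ± 0.26 higher in SI (adjusted p = 0.567), with 10.1 and 15.1 CPM in LI and 19.5 and 22.0 CPM in SI. Cluster 9, the neural cluster high in *Nrg1*, held 44 of 220, 56 of 264, 79 of 326 and 110 of 436 neural cells. Its part in this difference was not tested. *Pdpn* differed by 0.44 ± 0.33 (adjusted p = 0.792), and by 1.32 without LI replicate 2, when it passed (adjusted p = 0.000682).

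SMC were set beside other mesenchyme in the same way. The 10 SMC markers, none at 0, summed to 1775, 6167, 5246 and 11257 CPM in the SMC group. LI replicate 1 thus lay below the 2350 CPM of other mesenchyme in SI replicate 2. The 8 FB markers summed to 1051, 1801, 1235 and 1656 CPM in SMC. In other mesenchyme they summed to 1070, 1811, 1218 and 1852 CPM. The part of both marker lists in these differences was not tested. *Dpp4* passed the filter on low counts through other mesenchyme alone, held 2, 11, 8 and 16 UMIs in SMC and is given no fold or test. *Dpp4* was lower in SMC (2, 11, 8 and 16 UMIs, log2 -1.18 ± 0.24, adjusted p = 0.00969) and *Cd81* slightly so (-0.14 ± 0.03, adjusted p = 0.0140). *Cd81* missed the threshold without SI replicate 1 or SI replicate 2, and with the clusters at resolution 0.6 (adjusted p = 0.172, edgeR). *Pdpn* (0.33 ± 0.11, adjusted p = 0.0676), *Nrg1* (-0.06 ± 0.14, adjusted p = 0.825) and *Cd34* (-0.25 ± 0.35, adjusted p = 0.675) did not pass.

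**Figure D4:**
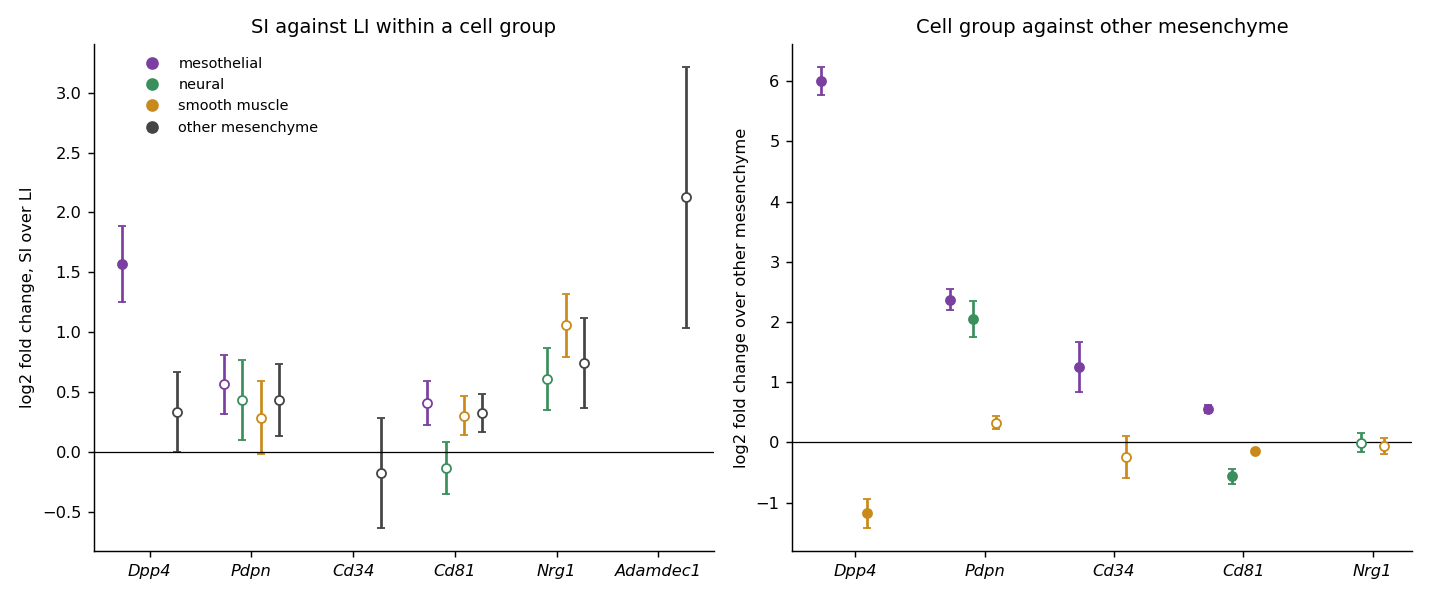
Log2 differences with SE (vertical axes) for the members tested (horizontal axes), of SI over LI within each cell group on the left and of each cell group over other mesenchyme on the right; colours are cell groups and a filled point passed an adjusted p of 0.05 in edgeR. *Dpp4* in mesothelial cells (1.57 ± 0.32) is the one difference between SI and LI that passed. *Dpp4* in neural cells and *Nrg1* in mesothelial cells are left out on the right for their few UMIs. *Dpp4* in smooth muscle cells is drawn there, but it passed the filter on low counts through other mesenchyme alone.

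Co-detection asks whether 2 genes were found in the same cells more often than their separate shares would give, as a ratio of observed to expected cells after thinning. *Dpp4* and *Pdpn* were found together in 40 cells where 12.9 were expected (ratio 3.11, above 1 in 4 of 4 libraries), but within mesothelial cells in 38 where 36.2 were expected (1.05). *Dpp4* shared cells with *Upk3b* (264 against 19.2) and with the coelomic factor *Wt1* (173 against 21.3, and in other mesenchyme 12 against 3.1). It was rarely found with the receptor *Pdgfra* (20 against 85.5) or with *Nrg1* (3 against 18.7). Within mesothelial cells *Dpp4* was found with *Gli1* in 6 cells against 14.4 expected and with *Acta2* in 15 against 24.8, below 1 in each library. These ratios come from sparse counts, carry no test and share their libraries.

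*Adamdec1* and *Nrg1* were found together in 21 other mesenchymal cells where 6.76 were expected (3.1, above 1 in 4 of 4 libraries). *Adamdec1* also shared cells with the BMP ligand *Bmp3* (21 against 3.51) and with *Pdgfra* (48 against 36.5), and with *Wt1* in 0 cells against 5.27 expected. *Nrg1* behaved alike, with *Bmp3* in 60 cells against 14.2 and with *Wt1* in 3 against 24.7. *Adamdec1* and *Nrg1* were both highest in cluster 3, where *Bmp3* was a leading gene, and no ratio was taken within that cluster. *Nrg1* and *Pdpn* were found together in 30 other mesenchymal cells against 14.3 (ratio 2.10, 4 of 4 libraries) and in 1 neural cell against 5.50. In neural cells the progenitor factor *Sox10* accompanied *Pdpn* (37 against 25.8, above 1 in 3 of 4 libraries) and was rarely found with *Nrg1* (1 against 13.6). *Sox10* and *Pdpn* were high in neural cluster 7 and *Nrg1* in cluster 9, and no ratio was taken within either.

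**Figure D5:**
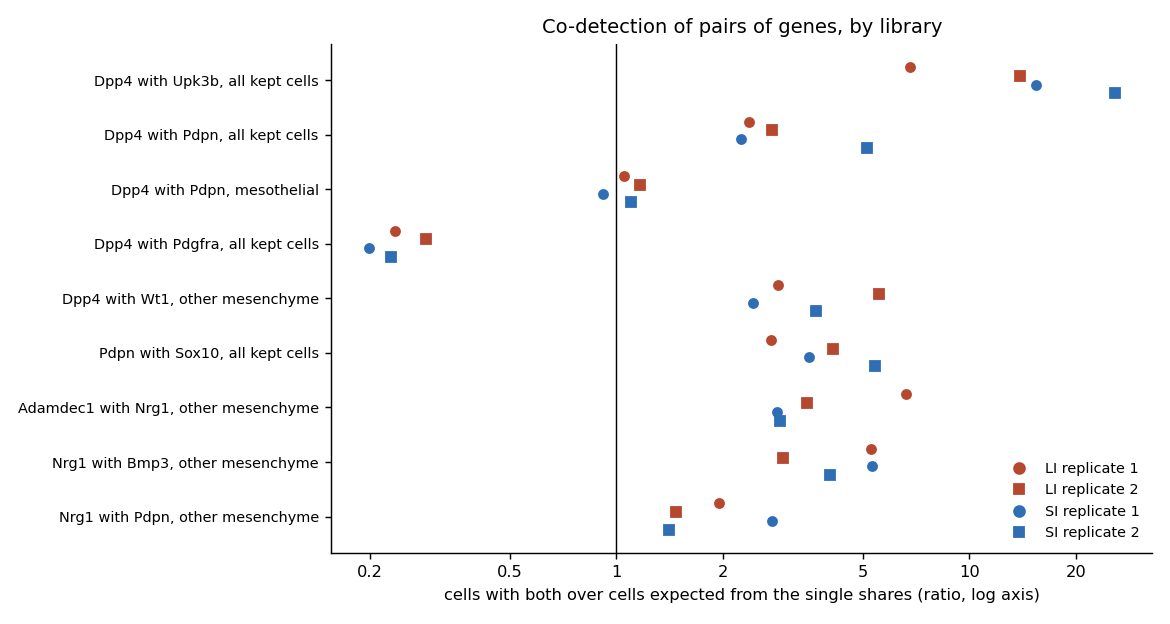
Ratio of observed to expected cells holding both genes of a pair (horizontal log axis, line at 1 for independence) in cells thinned to 3000 UMIs, for 9 pairs; points are libraries, coloured by region. *Adamdec1* with *Nrg1* in other mesenchyme lies above 1 in 4 of 4 libraries, and *Dpp4* with *Pdpn* within mesothelial cells lies near 1. Other mesenchyme joins several clusters, and no ratio was taken within a single cluster of it.

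The genes with the most similar pattern were ranked by Pearson correlation of log2(CPM + 1) over the 16 sums (4 libraries in 4 cell groups, which share libraries) among 9637 genes. For *Dpp4* they were *Fmod* (r = 0.991), *Pcdh19* (0.985) and *Krt17* (0.985), for *Pdpn* *Prkcb* (0.947), *Lrrtm1* (0.943) and *Chchd10* (0.941). For *Cd81* they were *Tmed3* (0.971), *Wfdc2* (0.971) and *Aebp1* (0.968), and for *Nrg1* *Pde12* (0.955), *Rbm17* (0.942) and *Trmt11* (0.937). Correlation does not measure the size of a change, and these last 3 genes were not nearly missing from mesothelial cells. Mean levels there were 18.3 CPM for *Pde12*, 124 for *Rbm17* and 12.7 for *Trmt11*. In the other groups they were 30.1 to 34.8, 155 to 157 and 20.9 to 21.9 CPM. The other 3 members had no group mean, over the 4 libraries, of 10 CPM.

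The receptors of neuregulin were read beside the ligand. *Erbb3* stood at 71.0 ± 32.1 CPM (SD, n = 4) in neural cells and at a mean of at most 0.28 CPM in the other groups, *Erbb2* had group means of 4.56 to 17.9 CPM, and *Erbb4* of at most 0.31 CPM. The related ligand *Nrg2* was at 29.3 ± 17.0 CPM in mesothelial cells, where *Nrg1* was nearly missing, and was higher than in other mesenchyme by a log2 difference of 2.54 ± 0.21 (edgeR, adjusted p = 1.74e-05), and *Egfr* was lower there (-1.55 ± 0.24). Of 16 genes on the ERBB list 8 were tested in that contrast, 1 rose and 1 fell, beside 38.6% of all genes called, and 0 of 8 passed between SI and LI in other mesenchyme with edgeR, beside 3.16% of all genes, where 1 had an unadjusted p under 0.05 and DESeq2 called 1.

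Partners and relatives of the surface members moved in both directions between mesothelial cells and other mesenchyme, where 19.2% of all genes passed as higher and 19.5% as lower in mesothelial cells. Of 20 tetraspanins and partners of CD81 tested, 11 were higher and 2 lower, with *Itga3* (log2 4.06 ± 0.14) and *Cd9* (2.58 ± 0.14) among the higher. Of 6 podoplanin partners the membrane linker *Ezr* was higher (3.82 ± 0.13) and 3 were lower, among them the hyaluronan receptor *Cd44* (-3.07 ± 0.41). Of 11 dipeptidyl peptidases and partners or substrates 4 were higher, with *Dpp10* and the caveolin *Cav1* both at 3.22, and 2 lower, with the chemokine *Cxcl12* at -1.31 ± 0.20. The CD34 relative *Podxl*, one of the markers that named the mesothelial group, was higher by 6.39 ± 0.35 and *Podxl2* by 0.41 ± 0.09. Of 4 CAP-domain genes *Crispld1* was higher (0.94 ± 0.25), and of 9 ADAM genes 3 were higher and 2 lower (*Adam19* -2.36 ± 0.25, *Adam12* -2.68 ± 0.40).

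Genes of the adult subsets were split likewise. Of 12 genes tested from a list for the CD81+ and *Pi16*+ type, 5 were higher in mesothelial cells and 4 lower, with *Wnt2b* (4.62 ± 0.29), *Rspo1* (2.92 ± 0.16) and *Cd55* (1.15 ± 0.11) among the higher. Of 15 for the PDGFRα hi type 7 were higher and 6 lower, with *Pdgfra* at -5.46 ± 0.21, and of 7 for the *Fgfr2*+ type 3 were higher, *Dcn* among them (3.56 ± 0.27), and 4 lower. Between SI and LI in other mesenchyme, 4 of 14 of the first list were higher in SI and 1 was lower, with a list median of 0.44 beside 0.01 over all genes, of which 0.962% were called higher and 2.19% lower. These included the WNT agonists *Rspo1* (2.16 ± 0.23, adjusted p = 0.00364, edgeR) and *Rspo3* (1.61 ± 0.20, adjusted p = 0.00722) and, lower in SI, the semaphorin *Sema3c* (-2.70 ± 0.22, adjusted p = 0.00171), while *Cd81* itself did not pass. The PDGFRα hi list had 1 gene of 17 lower in SI (the matrix gene *Tnc*, -1.96 ± 0.37) and none higher with edgeR, where 9 had an unadjusted p under 0.05 and DESeq2 called 4. The *Fgfr2*+ list had 1 of 10 higher (*Lum*, 1.29 ± 0.18) and 1 lower (*Edil3*, -1.75 ± 0.18). Among tetraspanins and partners *Tspan18* was higher in SI (1.07 ± 0.22, adjusted p = 0.0499) and the integrins *Itga4* (-3.02 ± 0.28) and *Itga6* (-1.57 ± 0.27) were lower, and *Cd44* was the 1 of 6 podoplanin partners that passed, lower in SI by -1.90 ± 0.28. In that contrast edgeR called 0 of 10 dipeptidyl peptidase genes (2 at an unadjusted p under 0.05, 0 with DESeq2) and 0 of 3 *Cd34* relatives and partners (1 unadjusted, 1 with DESeq2). It also called 0 of 5 CAP-domain genes and 0 of 10 ADAM genes, with 1 at an unadjusted p under 0.05 on each list and 0 with DESeq2.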

How the data were processed

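Per the labels and methods, cells were captured with a 10x Genomics 3′ v3 or 5′ kit (which library used which is not given in the sources used here) and the authors used Cell Ranger 3.1.0, Seurat 3 and mm10, as the submitters' processing notes name them. The deposited values are raw UMI counts per gene and barcode, with no normalization. The members and gene lists were chosen with earlier results of these data known.

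Barcodes with at least 1000 genes and at most 10% mitochondrial UMIs were kept. The Scrublet threshold of scanpy 1.11.5 marked 1 to 6 cells a library, so a fixed number of top-scoring cells was taken out of each library (0.8% per 1000 cells, 183 to 348 cells). Libraries held 31630548 to 62886525 UMIs. They were integrated with Seurat 5.3.0 on 1947 genes that held no member or listed pathway gene, and 176 cells in 2 small clusters were left out of the groups. Mesothelial, neural and SMC clusters were named from at least 3 markers among their 10 leading genes. A cluster with no marker of any type among those was called FB where at least 3 FB markers were each found in at least 10% of its cells.

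UMIs were summed per library and cell group and tested with edgeR 4.0.16 (TMM, filterByExpr, quasi-likelihood, library as a block between cell groups), Benjamini-Hochberg adjusted over all genes tested. The code was tested on simulated data. Alternatives were DESeq2 1.42.0, its size factors in edgeR, no filter on low counts, no doublet removal, thinning to 3000 UMIs, other clusters, a replicate block and leaving out each library. With 2 libraries a region, p-values measure the spread between these libraries. Intervals and limits for a count of 0 cover counting error only. Genes named beside the members were the 3 most alike in pattern and, from each list, up to 3 called genes with the smallest adjusted p.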

Additional observations from a re-analysis of the deposited data

Results flagged for a closer look

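The difference in *Dpp4* between SI and LI was itself different between 2 cell groups. It was larger in mesothelial cells than in other mesenchyme by a log2 value of 1.19 (interaction term, edgeR, adjusted p = 0.00211), with 46.3 and 106 CPM in LI and 176 and 257 CPM in SI mesothelial cells beside 1.59 and 2.37 CPM in LI and 1.84 and 2.68 CPM in SI other mesenchyme. Both SI libraries lay above both LI libraries in mesothelial cells, and the regions overlapped in other mesenchyme. Groups of 2 libraries were too small to test for a single outlying library.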

How the results depend on the processing

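Leaving out a library left 1 region with 1 library, which was assumed to vary like the others. The number of members called ranged from 0 to 2 between SI and LI in other mesenchyme, from 0 to 1 in neural cells (1 without LI replicate 2), from 0 to 3 for SMC and from 3 to 5 for neural cells against other mesenchyme. Against other mesenchyme, the counts for SMC and neural cells take in *Dpp4*, which passed the filter on low counts through other mesenchyme alone. The replicate numbers are shared by SI and LI but no label says that a number marks a shared experiment. Same-numbered libraries deviated together (correlations of 0.303 in other mesenchyme, 0.229 in mesothelial cells, 0.408 in SMC and 0.310 in neural cells, 2 pairs each). With the replicate number as a block, 1 member passed between SI and LI in other mesenchyme (*Adamdec1*, 2.01, adjusted p = 0.0151, edgeR) and 1 in SMC (*Nrg1*, 1.02, adjusted p = 0.000617), and the block raised the genes called to 1111 from 443 in other mesenchyme, 683 from 126 in mesothelial cells, 1393 from 183 in SMC and 408 from 35 in neural cells. With no filter on low counts 2 members passed between SI and LI in other mesenchyme, 1 in SMC and 5 for neural cells against other mesenchyme, and 1554, 424, 882 and 362 genes were called in the same order of groups. For SMC against other mesenchyme 1 member passed after thinning and 1 with the clusters at resolution 0.6.

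Without LI replicate 2 there were 1942 genes called in other mesenchyme, 755 in mesothelial cells, 802 in SMC and 1473 in neural cells, and without SI replicate 2 edgeR called 0 in neural cells. Without LI replicate 1 it called 887 in other mesenchyme and 246 in neural cells, and without SI replicate 1 it called 138 in neural cells, where 63 were called with no doublets removed. DESeq2 called 706, 313 and 103 in other mesenchyme, SMC and neural cells. For the interaction, 683 genes became 198 with DESeq2, 400 after thinning, 320 without LI replicate 1 and 375 without SI replicate 2. For mesothelial cells against other mesenchyme, 4922 became 3135 after thinning, and for SMC against other mesenchyme 2882 became 1838 with DESeq2, 1818 after thinning and 1517 to 1878 without 1 of 3 libraries.

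Shares followed depth. Without thinning the *Dpp4* share of mesothelial cells was 29.6% in LI and 72.5% in SI, and at 2000 UMIs 32.8% in SI. The *Pdpn* share was 19.9% in LI and 29.0% in SI without thinning, and 7.62% at 2000 UMIs and 7.97% with no doublets removed in LI. The *Cd81* share of other mesenchyme was 77.8% and 90.9% without thinning, 43.4% and 47.0% at 2000 UMIs, and 56.3% in LI with no doublets removed. The ratio for *Dpp4* with *Pdpn* in mesothelial cells was 1.29 at 2000 UMIs and 1.33 with no doublets removed.

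Directions turned only for differences that had not passed. Between SI and LI, leaving out a library gave -0.89 to 3.88 for *Adamdec1* and -0.92 to 0.30 for *Cd34* in other mesenchyme, -0.02 to 0.56 for *Pdpn* in SMC and -0.35 to 0.10 for *Cd81* in neural cells. *Pdpn* was -0.06 in the clusters with FB names and -0.02 in thinned neural cells, where *Cd81* was 0.04. Against other mesenchyme SMC gave -0.13 to 0.12 for *Nrg1* and -0.57 to 0.26 for *Cd34*, which was 0.10 with no doublets removed. The interaction gave -1.41 to 0.23 for *Nrg1* (few mesothelial UMIs), -0.34 to 0.59 for *Pdpn* and -0.01 to 0.24 for *Cd81*, with -0.02 for *Cd81* in the clusters with FB names. The cause of these changes was not tested. For *Nrg1* in neural cells against other mesenchyme, at 0.00, the alternatives ran from -0.12 to 0.11 and it has no direction. Of the other values for single members, 331, those of that *Nrg1* contrast among them, kept their side of the threshold and, apart from it, their direction, 9 passed and 10 no longer passed. Precision is limited by 2 libraries a region, and *Pi16*, *Cd34* and, outside cluster 3, *Adamdec1* by few UMIs.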
